A study of Mus musculus with 35 samples.

Results

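Brown adipose tissue was compared between Suv420h double-knockout mice and control mice that were female, 21 weeks old and fed normal diet. The comparison holds 10 of the 35 libraries of the series, 5 labelled knockout and 5 labelled control. Of the others, 10 come from female mice of the same age and both genotypes after 14 weeks on a high fat diet with 45 kJ% fat, and 15 from mice aged 4 weeks, 6 knockout (5 labelled female, 1 male) and 9 control (5 female, 4 male), whose fit had a term for labelled sex. The labels do not say how the knockout alleles were made, which part of each gene was removed, in which cells, or whether the control mice carried any allele or Cre of their own. Nor do they say that the replicates of a group came from different animals, so each p-value below is set against a spread among libraries that may be technical.

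Suv420h1 and Suv420h2 (also named Kmt5b and Kmt5c) are the methyltransferases that add the second and the third methyl group to lysine 20 of histone H4. The trimethylated form is a mark of compact, silent chromatin such as the pericentromeric repeats and many endogenous retroviruses. Brown fat burns fatty acids and glucose to make heat, through the uncoupling protein Ucp1 of the inner mitochondrial membrane. Its programme depends on the nuclear receptor PPAR-gamma (gene Pparg) and its coactivator PGC-1alpha (Ppargc1a). By its title, the series concerns the control of PPAR-gamma and energy expenditure by Suv420h enzymes.

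The tissue label was checked against marker genes, and the libraries differed in ways that touch every result. Ucp1 averaged 4217 ± 1134 CPM in knockout and 5859 ± 1433 CPM in control libraries (CPM, counts scaled to a common library size, SD, n = 5 each), and Cidea 6493 ± 1012 CPM in knockout and 7670 ± 3080 CPM in control libraries, so both defining transcripts of brown fat were abundant. Libraries also held skeletal muscle transcripts, measured by a muscle score that averages the log2 CPM of Acta1, Ckm, Mylpf, Tnnt3 and Myh4. This score was 5.31, 3.79, 5.28, 7.60 and -0.38 in the knockout libraries, against 3.30, 11.44, 9.12, 9.97 and 7.2 in the control libraries. The groups overlapped, with control libraries 2, 3 and 4 above every knockout library, and the score differed by -3.89 (two-sided exact permutation p = 0.0952, smallest possible 0.00794). Summed over 29 skeletal muscle markers, knockout libraries held 104 to 2682 CPM (median 599) and control libraries 199 to 43364 CPM (median 8158), with none of the 29 at 0 in all libraries.

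Base composition separated the genotypes completely. A GC measure, the median deviation of genes with a transcript GC content from 54.1% up minus that of genes up to 44.8%, on the log2 scale, ran from -0.22 to -0.09 in knockout and from -0.08 to 0.35 in control libraries (exact permutation p = 0.00794, the smallest possible). Mitochondrially encoded genes took 17.7 to 19.1% of counts in knockout and 11.9 to 18.3% in control libraries (exact permutation p = 0.0159). Total counts ran from 3616882 to 6738518 in knockout and from 2398807 to 7693388 in control libraries. The part of these library differences in the genotype results was not tested beyond the fits given beside each result, and where they run with genotype they cannot be told apart from it. In bulk tissue, fewer cells of a type and less RNA per cell cannot be told apart either.

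**Figure D1:**
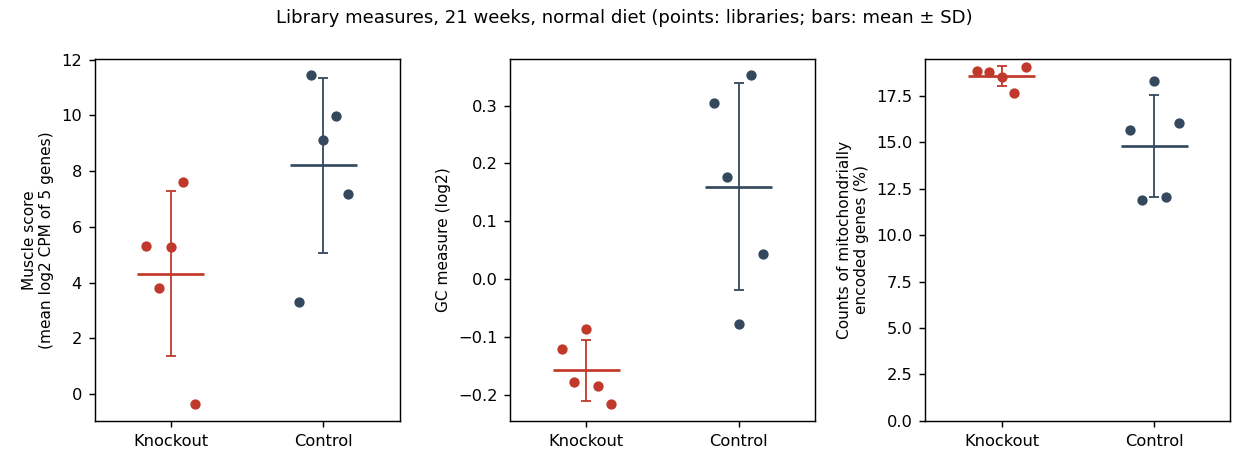
Each point is 1 normal diet library, knockout left and control right, with horizontal bars at the mean and error bars of 1 SD. The left panel plots the muscle score in log2 CPM, the middle panel the GC measure in log2 units and the right panel the percent of counts from mitochondrially encoded genes. The muscle score overlaps between genotypes and the GC measure does not.

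Of 12082 genes tested, 320 were called at an adjusted p below 0.05, which is 2.65%. Of these, 156 (1.29%) were higher and 164 (1.36%) lower in knockout, and 232 changed by at least 1 on the log2 scale. At an unadjusted p below 0.05 there were 2512 of the 12082, and DESeq2 called 884. Counts of either kind given for lists below are to be read against these. Library values of the groups did not overlap in 524 genes (4.34% of those tested), with 306 higher (2.53%) and 218 lower (1.8%) in knockout, and 201 of the 524 were called. Fold changes below are log2, knockout over control, with 1 SE, from edgeR's quasi-likelihood test with Benjamini-Hochberg adjustment over all genes.

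The called list was shorter with the muscle score in the fit, although all 320 genes kept the sign of their fold change. Why calls were lost was not tested. With the muscle score as a covariate 97 genes were called (0.803%), 54 higher (0.447%) and 43 lower (0.356%). They kept 53 of the 156 higher and 39 of the 164 lower genes and added 5. Of 39 genes with a fold change at or below -2, 6 kept their call, and of 47 at or above 2, 28 did. Expression rose with the score in 114 genes (0.944%) and fell with it in 0, and 9 of the genes called lower had a rising slope. A correction for GC content left 314 genes called (2.6%), 140 higher (1.16%) and 174 lower (1.44%), with 277 of the 320 kept. With that correction and the score together 84 were called (0.695%), 44 higher (0.364%) and 40 lower (0.331%). When control libraries 2, 3 and 4 were left out, 118 of 12873 genes were called (0.917%), 70 higher (0.544%) and 48 lower (0.373%), 67 of them among the 320.

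**Figure D2:**
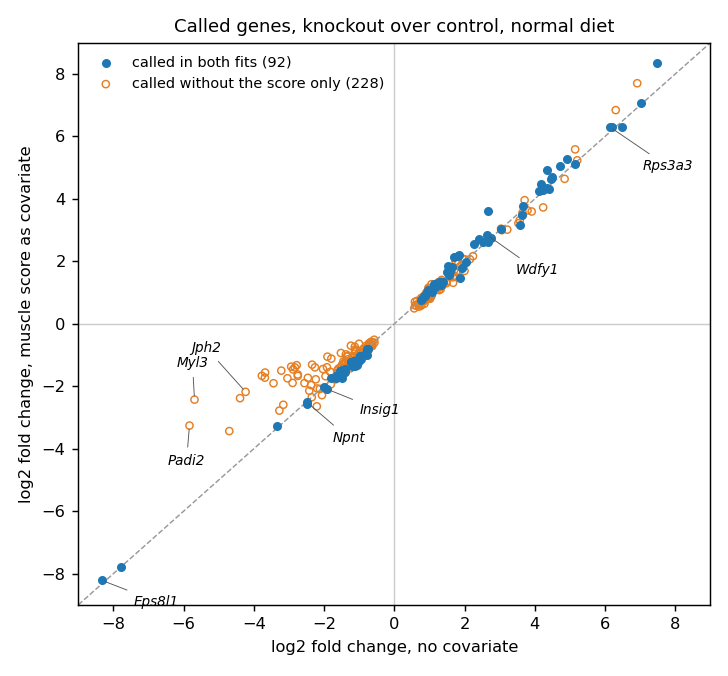
Each point is 1 of the 320 called genes, with its log2 fold change (knockout over control) without a covariate on the x axis and with the muscle score as covariate on the y axis. The 92 genes called in both fits are blue and the 228 called only without the score are open orange circles. The dashed line marks equal values, and open points such as Myl3, Padi2 and Jph2 lie above it because their decrease was smaller with the score. Fold changes of genes at 0 in a whole group, such as Eps8l1, depend on the prior count.

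The knockout was first examined at its targets. Suv420h2 (chromosome 7, 4740115 to 4747514, GRCm38) had 20.8, 21.5, 10.2, 16.8 and 20.4 CPM in knockout libraries, against 75.3, 39.8, 27.7, 65.7 and 41.1 CPM in control libraries. The groups did not overlap, and the fold change was -1.48 ± 0.34 (adjusted p = 0.0218, and 0.0458 with the muscle score). The call was lost without knockout library 3, knockout library 4 or control library 4 (adjusted p up to 0.0604). On high fat diet Suv420h2 averaged 10.4 ± 4.17 CPM in knockout and 17.6 ± 7.73 CPM in control libraries, with overlap (-0.76 ± 0.34, adjusted p = 0.913). Suv420h1 (chromosome 19) averaged 39.5 ± 10.6 CPM in knockout and 42.4 ± 6.82 CPM in control libraries, a fold change of -0.10 ± 0.24 that did not pass (adjusted p = 0.838). A 3′ tag outside a deleted part does not check a deletion, and no label names the deleted parts.

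The chromosome around Suv420h2 held 2 genes without a count in the knockout libraries. Eps8l1, which encodes a relative of the actin regulator Eps8 and starts 279 kb before Suv420h2 (chromosome 7, 4460674 to 4480487), had 0 counts in the 5 knockout libraries against 149 in the 5 control libraries, 12 to 55 each. Gm15510, an antisense transcript 307 kb after it (5046949 to 5057116), had 0 counts in knockout against 114 in control libraries. Set against a floor of 3 counts over the group, Eps8l1 was at least 48.5-fold lower and Gm15510 at least 37.1-fold lower in knockout (both adjusted p = 2.27e-04). No source used here gives the strand setting of the counting, so reads of an antisense transcript and its sense partner may not be separated. On high fat diet Eps8l1 had 2 counts in knockout against 124 in control libraries, and Gm15510 1 against 147.

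Within 2 Mb of Suv420h2, 47 genes were tested, of which 7 were lower and 0 higher, with a median fold change of -0.40. Beside Suv420h2, Eps8l1 and Gm15510 these were Sbk2 (-3.05 ± 0.62), Zfp444 (-1.41 ± 0.39), Hspbp1 (-1.18 ± 0.31) and the pseudogene Gm3375 (-0.71 ± 0.19), chosen for their position after their values were seen. Of the 7, 3 kept the call with the muscle score. The median of the 47 genes on high fat diet was -0.10. Below 40 Mb on chromosome 7, 295 genes gave 3 higher and 19 lower calls. The remaining 619 genes of the chromosome gave 10 higher and 5 lower, and 11072 genes elsewhere gave 141 higher and 140 lower.

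**Figure D3:**
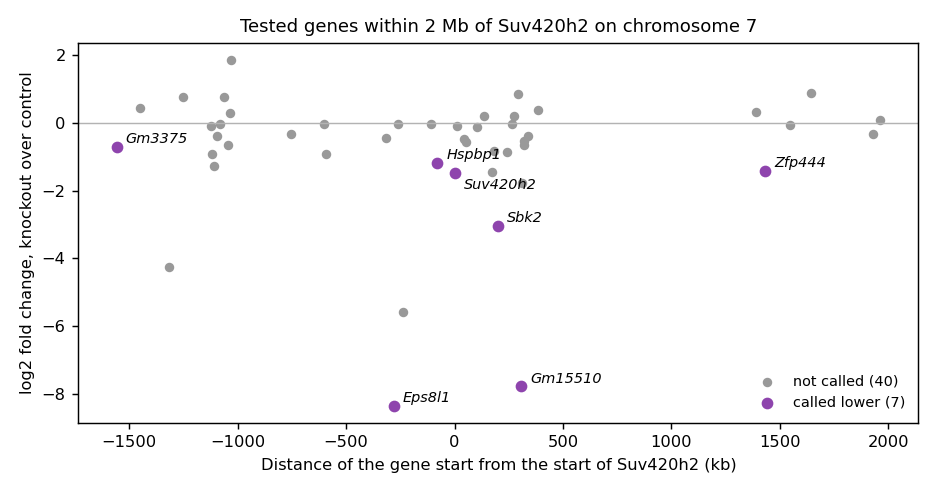
Each point is 1 of the 47 tested genes within 2 Mb of Suv420h2, by distance of its start from that of Suv420h2 in kb and its log2 fold change (knockout over control). The 7 genes called lower are purple and named, and the 40 others grey. Eps8l1 and Gm15510 had 0 counts in knockout, so their plotted fold changes depend on the prior count.

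Another 8 called genes had 0 counts in every control library. The clearest by count was Gm45104 on chromosome 7 (18396516 to 18400865), an annotated transcript of unknown function, with 96 counts in knockout against 0 in control libraries, at least 32.7-fold higher. It had 72 counts in knockout and 0 in control libraries on high fat diet too. Gm44954 and Tescl, both on the same chromosome, had 66 and 43 counts in knockout against 0 in control libraries, and on high fat diet 81 and 41 counts in knockout against 1 count each in control libraries. Both lost the call with the muscle score (adjusted p = 0.0655 and 0.0729). For Cnr1, which encodes the cannabinoid receptor CB1, normal diet counts were 47 in knockout against 0 in control libraries (at least 16-fold higher), but high fat diet counts were 137 in knockout against 65 in control libraries. These genes were chosen after their values were seen, and 5 of the 10 genes with a group at 0 lie on chromosome 7 below 40 Mb.

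A set of 33 genes was called whichever single library was left out (10 fits), with the muscle score, with the GC correction, with both, and without control libraries 2, 3 and 4. Of these, 16 were higher and 17 lower in knockout, and members outside the naming rule were chosen after their values were seen. Other fits were not required of the set, and some kept fewer calls. Of the 320 genes, 45 kept the call in normal diet libraries alone and 1 there with the score. With a replicate block and the score 12 kept it, so most of the 33 lose it in such fits. Among the higher ones, Wdfy1, an endosomal adaptor of Toll-like receptor signalling, had 59.4, 55.5, 39.0, 46.1 and 27.4 CPM in knockout libraries, against 6.59, 9.77, 10.9, 0.899 and 7.01 CPM in control libraries. Every knockout library was above every control library, by a fold change of 2.63 ± 0.34 (adjusted p = 1.36e-04; 2.85 with the muscle score).

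Ifi27l2a, an interferon-inducible gene, had 682, 350, 1400, 681 and 632 CPM in knockout libraries, against 172, 130, 60.2, 95.8 and 133 CPM in control libraries. No values overlapped, and the fold change was 2.66 ± 0.31 (adjusted p = 1.23e-04). Other members of its list did not follow: of 35 interferon-stimulated genes tested, 1 was higher (Ifi27l2a) and 0 lower, with a median of 0.11 against 0.02 over all genes. Hddc3, a hydrolase known from work in human cells and flies to act on the alarmone ppGpp and on NADPH, had 38.0, 37.7, 47.7, 37.9 and 75.8 CPM in knockout libraries, against 7.85, 7.77, 11.5, 19.8 and 11.6 CPM in control libraries (fold change 2.05 ± 0.28, adjusted p = 2.11e-04). Its lowest knockout library stood above its highest control library.

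Akr1c13, an aldo-keto reductase with near copies in the same gene cluster, had 18.6, 27.2, 19.9, 27.1 and 22.4 CPM in knockout libraries, against 4.24, 7.77, 5.74, 1.80 and 3.62 CPM in control libraries (fold change 2.27 ± 0.32). Pdia5, a protein disulphide isomerase of the endoplasmic reticulum, had 5.63, 6.81, 8.90, 9.41 and 11.3 CPM in knockout libraries, against 1.10, 0, 0.624, 0.450 and 0.966 CPM in control libraries (3.63 ± 0.55, adjusted p = 6.13e-04). Neither gene's groups overlapped. The pseudogene Rps3a3 had 35.8, 1.05, 22.9, 25.6 and 22.2 CPM in knockout libraries, against 0, 0, 0.375, 0 and 0.966 CPM in control libraries. Knockout library 2 was close to the controls, and counts of a pseudogene may be shared with its parent gene Rps3a1.

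Smaller increases in the set were those of Ivns1abp, Tob2, Ep400, Heg1, Zkscan3 and Ube2h. Ivns1abp, a Kelch-domain protein, had 280, 299, 457, 370 and 279 CPM in knockout libraries, against 166, 105, 136, 136 and 128 CPM in control libraries (1.33 ± 0.17, adjusted p = 1.40e-04). Tob2, an antiproliferative protein of the Tob/BTG family, had 331, 273, 300, 309 and 255 CPM in knockout libraries, against 122, 98.7, 171, 43.6 and 140 CPM in control libraries (1.35 ± 0.25, adjusted p = 0.00713). Both separated the groups without overlap. Ep400, the ATPase of a chromatin-remodelling complex, rose by 1.38 ± 0.27 (adjusted p = 0.011). Of 18 macrophage markers tested, 0 were called by edgeR or DESeq2 (1 at an unadjusted p below 0.05), their median was -0.48 (-0.27 with the muscle score), and their summed level was 125 to 220 CPM in knockout and 173 to 408 CPM in control libraries. The smallest increases were those of the vascular protein Heg1 (0.91), the zinc-finger protein Zkscan3 (0.84) and the ubiquitin-conjugating enzyme Ube2h (0.79), and the 16 also held Trim12a, Gm14410 and Gm17067.

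Ube2m, Psmb5 and Nipsnap1 were among the lower genes of the set. Ube2m, which conjugates NEDD8 to cullins, had 21.7, 19.9, 22.9, 18.7 and 18.9 CPM in knockout libraries, against 62.0, 51.6, 83.5, 53.5 and 48.8 CPM in control libraries (-1.56 ± 0.21, adjusted p = 1.50e-04). Psmb5, a catalytic subunit of the proteasome, had 15.8, 13.6, 19.1, 17.9 and 12.6 CPM in knockout libraries, against 35.6, 22.5, 34.5, 41.8 and 49.8 CPM in control libraries (-1.22 ± 0.22, adjusted p = 0.00609). Each had its highest knockout library below its lowest control library. Of 38 proteasome subunits tested, a group chosen after the values were seen, 0 were higher and 1 lower (Psmb5), with a median of -0.13. Atg4a, a protease of the autophagy machinery, was lower too (-1.25 ± 0.25, adjusted p = 0.011).

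Nipsnap1, a mitochondrial protein, had 20.8, 17.6, 16.7, 16.9 and 14.4 CPM in knockout libraries, against 41.6, 41.6, 32.2, 53.5 and 59.4 CPM in control libraries (-1.40 ± 0.21, adjusted p = 4.49e-04). Slc16a1, the lactate and ketone body transporter MCT1, had 146, 204, 202, 136 and 177 CPM in knockout libraries, against 353, 216, 268, 617 and 376 CPM in control libraries (-1.08 ± 0.23, adjusted p = 0.0142). Neither overlapped between groups, though the gap for Slc16a1 was narrow. Npnt, the matrix protein nephronectin, had 2.82, 2.62, 0.212, 2.91 and 3.29 CPM in knockout libraries, against 9.89, 18.8, 10.5, 17.1 and 11.4 CPM in control libraries (-2.49 ± 0.42, adjusted p = 0.00245). The matrix-associated Mxra7 (-2.02 ± 0.40), the Toll-like receptor adaptor Tirap (-1.64 ± 0.34), the phosphatase subunit Ppp2r5b (-1.67 ± 0.33), the oxidoreductase Dhrs1 (-0.97 ± 0.20) and the splicing-related Zmat2 (-0.78 ± 0.15) were also lower. The remaining 6 of the 17 were Insig1, described with cholesterol synthesis, Dus4l, 2810004N23Rik, the long non-coding RNA 2310069B03Rik, Eps8l1 and Gm15510.

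**Figure D4:**
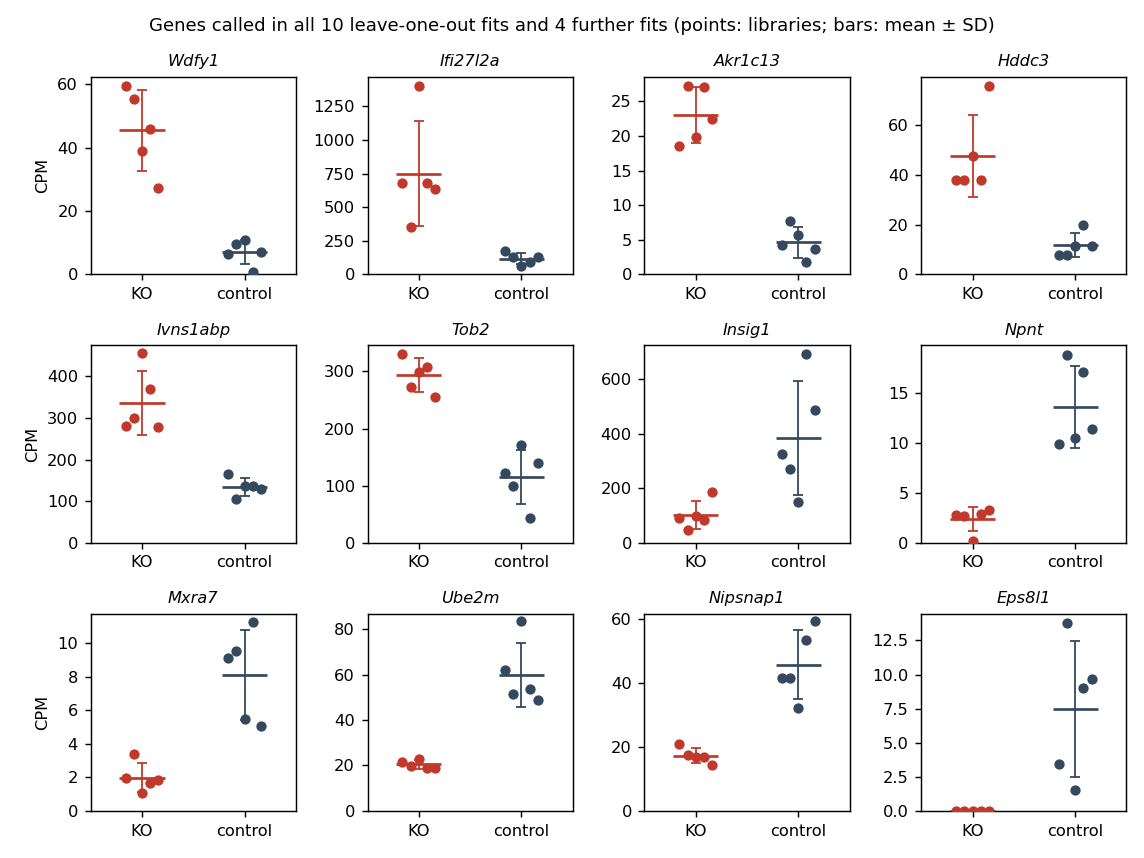
Each panel plots 1 of 12 genes of the set of 33, with CPM of each library on the y axis (starting at 0), knockout left and control right, horizontal bars at the mean and error bars of 1 SD. Wdfy1, Ifi27l2a, Akr1c13, Hddc3, Ivns1abp and Tob2 are higher in knockout, and Insig1, Npnt, Mxra7, Ube2m, Nipsnap1 and Eps8l1 lower. The groups overlap in the Insig1 panel and not in the others.

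Pparg itself did not pass. Its 5 knockout libraries had 46.2, 62.9, 64.2, 49.1 and 76.4 CPM, against 18.4, 19.3, 50.7, 27.4 and 30.4 CPM in the control libraries. Of the control libraries, 1 lay within the knockout range, and the fold change was 1.02 ± 0.29 (adjusted p = 0.0557). Differences also missed the threshold for Ucp1 (-0.47 ± 0.21, adjusted p = 0.203), Ppargc1a (0.96 ± 0.40, adjusted p = 0.186), the lipid droplet protein Cidea (-0.24 ± 0.23, adjusted p = 0.564) and the thyroid hormone deiodinase Dio2 (0.76 ± 0.43, adjusted p = 0.326). The leptin gene Lep, a white fat marker, was at 3.41 ± 5.50 CPM in knockout and 4.13 ± 2.49 CPM in control libraries (-0.27 ± 0.93, adjusted p = 0.897).

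Of 26 brown fat thermogenesis genes tested, 1 was higher and 0 lower, with a median of 0.27, and of 0.06 with 0 calls without control libraries 2, 3 and 4. The called gene was Ppara, the nuclear receptor that drives fatty acid oxidation, at 389, 335, 256, 374 and 280 CPM in knockout libraries, against 138, 169, 256, 191 and 209 CPM in control libraries. The lowest knockout library and the highest control library were almost equal, and the fold change was 0.76 ± 0.18 (adjusted p = 0.025, and 0.0568 with the muscle score). Of 38 genes of PPAR-gamma and adipogenesis, 1 was higher and 2 lower, with a median of 0.23. Higher was Klf15, a glucocorticoid-responsive transcription factor, at 36.6, 52.1, 28.8, 33.4 and 29.2 CPM in knockout libraries, against 14.0, 8.77, 27.7, 18 and 6.77 CPM in control libraries (1.25 ± 0.30, adjusted p = 0.0285). Lower were the lipid droplet coat protein Plin2 (547 ± 101 CPM in knockout, 961 ± 316 CPM in control libraries, -0.81 ± 0.22, adjusted p = 0.0459) and the acyltransferase Agpat2 (554 ± 89.9 CPM in knockout, 861 ± 142 CPM in control libraries, -0.64 ± 0.17, adjusted p = 0.043). With the muscle score, Klf15, Plin2 and Agpat2 had adjusted p of 0.0655, 0.0779 and 0.0747.

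Genes of mitochondrial fuel use gave few calls. Of 20 citric acid cycle genes, 2 were higher and 0 lower, with a median of 0.34 (0.12 without control libraries 2, 3 and 4). These were citrate synthase, Cs, at 553 ± 55.2 CPM in knockout and 321 ± 63.7 CPM in control libraries (0.79 ± 0.18, adjusted p = 0.0221), and fumarase, Fh1, at 299 ± 51.4 CPM in knockout and 118 ± 69.9 CPM in control libraries (1.33 ± 0.32, adjusted p = 0.0316). Neither gene's libraries overlapped between groups, but for Fh1 knockout library 4 (244 CPM) and control library 3 (240 CPM) were almost equal. With the muscle score adjusted p was 0.0822 for Cs and 0.105 for Fh1. With 1 library left out, Cs kept the call in 8 and Fh1 in 4 of 10 fits. Fatty acid oxidation gave 0 calls by edgeR in 24 genes (median 0.18), with 7 at an unadjusted p below 0.05 and 2 called by DESeq2. Its median was 0.06 with the muscle score. Nuclear-encoded oxidative phosphorylation gave 0 higher and 1 lower of 76 (median 0.18, and 0.04 without control libraries 2, 3 and 4), the lower one being the ATP synthase subunit Atp5g1 (-2.94 ± 0.70, and -1.37 with the muscle score, adjusted p = 0.308). Mitochondrially encoded transcripts gave 0 of 10 by edgeR and by DESeq2 (median 0.02, but -0.02 with the score), with 1 at an unadjusted p below 0.05.

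Glycolysis and glucose uptake held 1 higher and 2 lower genes of 20, with a median of -0.19. Hexokinase 1, Hk1, averaged 23.4 ± 5.59 CPM in knockout and 48.8 ± 16.8 CPM in control libraries (-1.06 ± 0.25, adjusted p = 0.0276, and 0.048 with the score). Glucose-6-phosphate isomerase, Gpi1, averaged 321 ± 69.6 CPM in knockout and 674 ± 337 CPM in control libraries (-1.07 ± 0.28, adjusted p = 0.0387, and 0.0916 with the score). The lactate dehydrogenase subunit Ldhb rose by 0.56 ± 0.15 (adjusted p = 0.0437, and 0.153 with the score). Lipolysis and adrenergic signalling gave 1 higher of 20, the adenylate cyclase Adcy6 (0.93 ± 0.24, adjusted p = 0.0377, and 0.0655 with the score), with a median of 0.20.

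In cholesterol synthesis 1 gene was higher and 2 lower of 22, with a median of -0.47, and in lipogenesis 0 higher and 1 lower of 24, with a median of -0.30. The lower lipogenesis gene was Insig1, which holds the sterol-sensing SREBP complex in the endoplasmic reticulum. It had 92.1, 47.2, 98.5, 83.6 and 186 CPM in knockout libraries, against 326, 269, 148, 692 and 486 CPM in control libraries. The highest knockout library lay above the lowest control library, and the fold change was -1.92 ± 0.39 (adjusted p = 0.0141). Hsd17b7, an enzyme of the late pathway, averaged 7.17 ± 1.61 CPM in knockout and 19 ± 7.91 CPM in control libraries (-1.40 ± 0.28, adjusted p = 0.0105), and the lanosterol demethylase Cyp51 was at -1.05 ± 0.27 (adjusted p = 0.036). Squalene synthase, Fdft1, went the other way (0.87 ± 0.24, adjusted p = 0.0495). With the muscle score, adjusted p was 0.0335 for Insig1, 0.0661 for Hsd17b7, 0.0789 for Cyp51 and 0.158 for Fdft1.

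**Figure D5:**
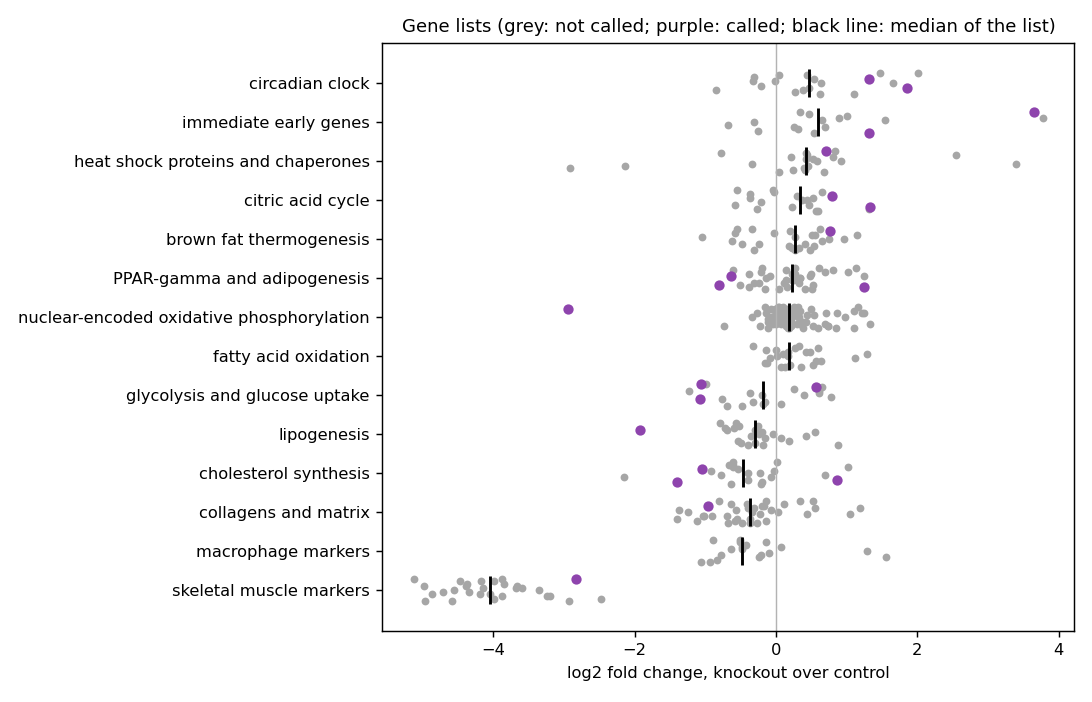
Each point is 1 tested gene of a fixed list, by its log2 fold change (knockout over control) on the x axis, with called genes in purple, others in grey and a black line at the list median. Medians of the 14 lists drawn ran from -4.05 for skeletal muscle markers to 0.59 for immediate early genes, against 0.02 over all genes. Few members of any list were called.

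Genes that follow the time of day, or that respond within minutes to stimulation, gave calls in 1 direction. Of 19 circadian clock genes 2 were higher and 0 lower (median 0.46), and of 16 immediate early genes 2 were higher and 0 lower (median 0.59). Per2, a repressor of the clock, had 34.3, 19.4, 25.2, 44.4 and 22.9 CPM in knockout libraries, against 7.53, 17.8, 6.87, 2.25 and 5.56 CPM in control libraries, without overlap (1.85 ± 0.46, adjusted p = 0.0334, and 0.0326 with the muscle score). Per1 had 46.2, 42.2, 40.9, 38.8 and 17.5 CPM in knockout libraries, against 20.1, 18.3, 19.1, 6.75 and 8.94 CPM in control libraries. Knockout library 5 fell within the control range (1.31 ± 0.33, adjusted p = 0.0354, and 0.109 with the score). The orphan nuclear receptor Nr4a3 averaged 7.81 ± 4.07 CPM in knockout and 0.628 ± 1.40 CPM in control libraries (3.65 ± 0.91, adjusted p = 0.032), and the antiproliferative Btg2 7.14 ± 1.72 CPM in knockout and 2.86 ± 0.777 CPM in control libraries (1.32 ± 0.36, adjusted p = 0.0489). Both lost the call with the score (adjusted p = 0.0818 for Nr4a3 and 0.176 for Btg2), and they kept it in 4 (Nr4a3) and 1 (Btg2) of the 10 fits with 1 library left out. Per2 and Per1 each kept the call in 4 of those 10 fits. Without control libraries 2, 3 and 4, both lists gave 0 calls. No label gives the time of day of sampling.

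Clock proteins bind the E-box CACGTG, so promoters were read for it, from 250 bases before to 50 after each transcript start of the RefSeq table (GRCm38.p6). Those of Per1, Klf15 and Insig1 are shown because they carry the clock, PPAR-gamma and lipogenesis calls and hold the motif. The Per1 window lies at a start inside the annotated span of the gene (69095217 to 69109960), and not at its first base. All 3 are given on the plus strand, 5′ to 3′, with CACGTG in capitals.
Per1, chr11:69098699-69098998: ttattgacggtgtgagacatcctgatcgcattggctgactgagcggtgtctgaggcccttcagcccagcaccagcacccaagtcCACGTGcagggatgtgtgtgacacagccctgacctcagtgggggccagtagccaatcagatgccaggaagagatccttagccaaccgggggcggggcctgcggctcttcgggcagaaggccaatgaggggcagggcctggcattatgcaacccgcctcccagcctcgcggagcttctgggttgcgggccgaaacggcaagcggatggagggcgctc
Klf15, chr6:90462326-90462625: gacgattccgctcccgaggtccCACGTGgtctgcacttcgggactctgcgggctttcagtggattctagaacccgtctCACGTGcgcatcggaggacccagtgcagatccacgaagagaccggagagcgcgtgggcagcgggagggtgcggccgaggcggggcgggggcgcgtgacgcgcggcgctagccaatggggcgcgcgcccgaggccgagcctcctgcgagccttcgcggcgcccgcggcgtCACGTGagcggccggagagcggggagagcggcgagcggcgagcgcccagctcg
Insig1, chr5:28071162-28071461: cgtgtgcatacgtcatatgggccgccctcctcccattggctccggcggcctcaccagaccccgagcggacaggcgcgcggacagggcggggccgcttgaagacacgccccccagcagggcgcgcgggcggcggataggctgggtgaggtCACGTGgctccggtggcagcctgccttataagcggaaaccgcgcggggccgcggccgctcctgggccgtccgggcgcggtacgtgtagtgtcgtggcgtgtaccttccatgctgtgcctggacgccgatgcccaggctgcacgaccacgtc
The motif occurred once in these Per1 and Insig1 windows and 3 times in that of Klf15. It reads the same on both strands and was added after the data were seen. Across called genes with a window it was in 12 of 106 higher ones (11.3%) and 17 of 128 lower ones (13.3%), against 1075 of 8801 tested genes (12.2%) and 7.15% of all 32851 windows. An interferon response sequence, GAAA and GAAA with 2 bases between them on either strand, was in 6 higher genes (5.66%) and 3 lower genes (2.34%), against 308 tested genes (3.50%). A direct repeat bound by PPAR-gamma, AGGTCA and AGGTCA with 1 base between them on either strand, was in 0 higher and 0 lower genes, against 2 tested genes (0.0227%). A match describes these letters and not a bound site.

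Other lists gave at most 1 call in either direction. The mitochondrial chaperone Hspa9 was the 1 higher gene of 22 heat shock proteins and chaperones (0.71 ± 0.17, adjusted p = 0.0274, and 0.0972 with the score, list median 0.43). In the machinery of H4K20 and H3K9 methylation, of 16 genes the heterochromatin protein Cbx5 (HP1alpha) was higher (0.71 ± 0.18, adjusted p = 0.032) and Suv420h2 lower, with a median of 0.18. Cbx5 lost the call with the score (adjusted p = 0.134) and with the GC correction (adjusted p = 0.113). Of 37 collagens and matrix genes 1 was lower, the basement membrane collagen Col4a2, at 39.9 ± 2.99 CPM in knockout and 78.2 ± 20.9 CPM in control libraries (-0.97 ± 0.22, adjusted p = 0.0202, and 0.048 with the score). The list median was -0.37, and -0.14 with the score. No gene was called by edgeR or limma-voom in the other lists, and these are given with their members at an unadjusted p below 0.05 and those called by DESeq2. Over all 12082 genes these numbers were 2512 and 884, and no list was tested against that share. Of 19 genes of MHC and antigen presentation (median -0.40), 4 had such a p and DESeq2 called 0. Of 20 genes of the unfolded protein and integrated stress response (median 0.12) these numbers were 3 and 1, of 23 antioxidant genes (median -0.06) 5 and 1, of 16 cell cycle genes (median 0.19) 2 and 1, and of 30 genes of peroxisomal lipid metabolism (median 0.07) 7 and 1. Among cell type markers they were 2 and 1 of 9 for white fat (median -0.23), 6 and 2 of 20 for endothelium (median 0.20), 6 and 2 of 14 for smooth muscle and pericytes (median -0.19) and 2 and 0 of 5 for erythroid cells (median 0.39). No marker had such a p, or was called by DESeq2, for fibroblasts and progenitors (14 genes, median -0.52), Schwann cells and nerve (8, median -0.33) or lymphocytes (3, median -0.35). Several of these medians turned: with the muscle score they were 0.16 for white fat, 0.05 for smooth muscle and pericytes, 0.19 for Schwann cells and nerve and 0.0038 for lymphocytes. Without control libraries 2, 3 and 4 they were 0.27, 0.18, 0.48 and 0.82 in that order. The fibroblast and progenitor median was -0.13 with the score, and that of MHC and antigen presentation -0.19.

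Many of the largest decreases among genes of at least 5 CPM belonged to genes of muscle. Myl3, the slow and cardiac myosin light chain, had 7.32, 29.1, 12.9, 26.6 and 5.15 CPM in knockout libraries, against 30.4, 2109, 403, 1640 and 38.4 CPM in control libraries. Control libraries 2 and 4, among those with the highest muscle scores, stood far above the rest. The fold change was -5.69 ± 1.36 (adjusted p = 0.0387), -2.43 with the muscle score (adjusted p = 0.16) and -1.08 without control libraries 2, 3 and 4. Jph2 (-4.24), Flnc (-3.77), Myom1 (-3.69), Casq2 (-3.68) and Myl1 (-2.84), which encode proteins of the muscle fibre and its calcium stores, likewise lost the call with the score, and Casq2 then stood at -1.56. Of 29 skeletal muscle markers 0 were higher and 1 lower, with a median of -4.05, of -0.16 with the score and of -0.41 without those 3 libraries. The 29 include the 5 genes of the score, whose values with it are not independent of it. Of 9 slow and cardiac muscle markers 0 were higher and 1 lower (median -5.40).

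Also lower, and also without a call once the score was in the fit, were Padi2 (-5.84), Pcp4l1 (-4.40), Scn4b (-3.44), Sypl2 (-3.22), Tox2 (-3.16) and Sbk2. The tight junction gene Cldn4 (-4.70 ± 1.27, adjusted p = 0.0459) was the 1 called gene of 4 epithelial and mammary markers (median -4.43, and -1.38 without control libraries 2, 3 and 4), and it lost the call with the score (adjusted p = 0.172). Their summed level was 0 to 16.5 CPM in knockout and 2.42 to 254 CPM in control libraries, and Cldn4 was at 0 in 4 knockout libraries. By contrast Adap1 (-1.81 ± 0.38) and the mitochondrial ribosome protein Mrps12 (-1.49 ± 0.36) kept the call with the score, and Hoxc5 was called with it alone (-1.79, adjusted p = 0.0326).

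Several large increases rested on values that varied widely among knockout libraries. Mfsd2a, the transporter of lysophosphatidylcholine, had 29.0, 9.17, 51.5, 118 and 3.09 CPM in knockout libraries, against 0.942, 0, 3.996, 0.899 and 0 CPM in control libraries (4.92 ± 1.07, adjusted p = 0.0247). Knockout library 5 fell within the control range. The mitochondrial tRNA gene mt-Tc had 96.0, 40.9, 442, 366 and 265 CPM in knockout libraries, against 21.8, 3.01, 5.62, 11.7 and 14.7 CPM in control libraries (4.41 ± 0.64, adjusted p = 0.00231). Its groups did not overlap. Control library 3, with the highest share of mitochondrially encoded counts among controls (18.3%), had 5.62 CPM of mt-Tc, and knockout library 4, with the lowest share among knockouts (17.7%), had 366 CPM. The fatty acid receptor Ffar4 averaged 65.1 ± 42.7 CPM in knockout and 11.7 ± 7.97 CPM in control libraries (2.42 ± 0.57, adjusted p = 0.033). Olig1 (4.35 ± 1.03) and Ccdc36 (4.19 ± 0.81) were higher too, and Rap1gap2 (2.24 ± 0.57) and the RNA helicase Ddx59 (2.01 ± 0.55) were higher without keeping the call with the score.

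The same contrast on high fat diet and at 4 weeks gave fewer calls, in other libraries with their own controls. On high fat diet 14 genes were called (0.116%), 12 higher (0.0993%) and 2 lower (0.0166%), of which 8 were also called in the same direction on normal diet (2.5% of 320 and 57.1% of 14). At 4 weeks 86 of 10366 genes were called (0.83%), 52 higher (0.502%) and 34 lower (0.328%), with 84 of the 86 tested here. Of these, 13 were shared (4.06% of 320 and 15.5% of 84). Rps3a3, Wdfy1, Akr1c13 and Eps8l1 were called in all 3 comparisons. Wdfy1 had fold changes of 2.63 on normal diet at 21 weeks, 2.43 on high fat diet and 2.34 at 4 weeks, and Akr1c13 of 2.27, 1.73 and 1.5 in that order. Carbonic anhydrase 3, Car3, which is abundant in fat, averaged 10403 ± 940 CPM in knockout and 5030 ± 1178 CPM in control libraries (1.05 ± 0.22, adjusted p = 0.0142, and 0.103 with the muscle score), and its high fat diet fold change was 1.44.

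Genes named above without a call on high fat diet differed in their values there. Klf15 had a fold change of 1.40 on high fat diet (adjusted p = 0.0611) and -0.25 at 4 weeks, Ifi27l2a of 1.44 (adjusted p = 0.0518) and 1.56, and Per1 of 0.83 (adjusted p = 0.799) and 0.36. Insig1 was at 0.18 on high fat diet and 0.20 at 4 weeks, Per2 at 0.10 and -0.34, Ppara at 0.05 and 0.25, and Pparg at 0.05 and -0.32. Several members of the set of 33 were near 0 or turned in that order: Pdia5 0.30 and -0.21, Trim12a -0.43 and -0.25, Ep400 0.11 and 0.0085. Zkscan3 was at -0.0045 and 0.11, Psmb5 at -0.27 and -0.07, and Mxra7 at -0.12 and -0.07. Ivns1abp (0.57 and 0.59) and Ube2m (-0.49 and -0.51) kept their direction. None of these 8 was called in either comparison. A difference in genotype effect between the diets was not called for any gene (0 of 12082 by edgeR's interaction test, with 772 at an unadjusted p below 0.05). No other tool was run for the interaction. Of the 320 genes called on normal diet, 276 (86.3%) had the same sign on high fat diet, against 62.6% of all genes tested, and 185 of 271 (68.3%) had it at 4 weeks, against 53.7% of 10149 genes. Muscle transcripts were uneven on high fat diet too. Control library 3 there had a muscle score of 8.73, and every other high fat diet library lay between -0.66 and 0.15. The skeletal muscle markers had a median fold change of -6.93 on that diet. The part of muscle in the shared signs was not tested.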

How the data were processed

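The labels' protocols describe a QuantSeq kit primed with oligo-dT on 500 ng of RNA, so each count is a tag near a transcript's 3′ end and levels of different genes are not scaled by length. The submitters' processing notes name STAR 2.5.3a for this series, with featureCounts, limma and the builds mm10 and GRCm38, without filters, annotation or strand setting. The authors deposited whole-number counts per gene and library, not normalised, which are used here. The deposited tables of fold changes and p-values were not used. In the 21-week counts 18 gene names had been turned into dates (0.09% of counts).

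Of 13233 genes, 12082 passed filterByExpr (minimum count 10) of edgeR 4.0.16 in R 4.3.3. Counts were scaled by TMM, and the 4 groups of 5 libraries at 21 weeks entered 1 robust quasi-likelihood model. The 4-week libraries had their own model. SEs were derived from fold change and F statistic. Floors cover counting error only, whereas the SEs include the spread between libraries. No 2 normal diet libraries of a group agreed within sampling noise (lowest chi-square 8.30 per gene). Positions are from GENCODE on GRCm38.

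The comparison, the 33 gene lists and the naming rule were chosen with earlier results of these data known. The rule took the targeted genes, 6 brown fat core genes, the 12 highest and 12 lowest called fold changes and the 8 and 8 with the muscle score (mean of at least 5 CPM, predicted genes left out), up to 3 called members a list, the score genes, and up to 10 genes also called on high fat diet or at 4 weeks. The procedure was tested on simulated data. It recovered 29 of 96 simulated 2-fold changes and 68 of 94 4-fold changes, with 1 false call. A gene without a call may therefore still differ. The simulated counts were drawn gene by gene, without muscle carry-over or a GC difference between libraries. The 1 false call thus does not measure false calls in the real data. DESeq2 1.42.0 and limma-voom (limma 3.58.1), other filters and scalings, a replicate block, GC correction and left-out libraries were alternatives. The muscle-gene-free scaling, GC corrections and leaving out 3 control libraries were added after seeing the data. Some called genes are not reported here.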

Additional observations from a re-analysis of the deposited data

Results flagged for a closer look

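Among 150 groups of library values that were checked, 9 held 1 library whose gap to its nearest neighbour was large relative to the group's range. Such a check marks some groups by chance alone, at the usual rate of a 95% criterion. Values are log2 CPM with a prior count.

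Among genes called higher, the lowest knockout library was at 0.50 for Rps3a3, with the others between 4.50 and 5.17. It was at -1.45 for Olig1, with the others between 3.73 and 4.95, and at 4.16 for Per1, with the others between 5.29 and 5.54. For Ccdc36, 1 knockout library reached 5.26 while the others ranged between 2.77 and 3.37. In the control libraries, Nr4a3 had 1 value of 1.81 and 4 at -1.45, which is a count of 0. The lowest control library was at 0.34 for Wdfy1, with the others between 2.80 and 3.49, and at 11.57 for Car3, with the others between 12.33 and 12.59.

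Among genes called lower, the lowest knockout library was at -0.79 for Npnt, with the others between 1.58 and 1.87. Cldn4 had 1 knockout library at 0.081 and 4 at -1.45. What sets these libraries apart was not tested.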

How the results depend on the processing

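The count of 320 called genes (156 higher, 164 lower) was within 1.5 times under median-of-ratios scaling (333), without a filter on low counts (334), with a minimum count of 50 (325), with muscle genes left out of the scaling (320) and with the GC correction (314). DESeq2 called 884, limma-voom 146, and the normal diet libraries alone 49. The muscle score gave 97, or 1 in normal diet libraries alone. GC correction with the score gave 84, and leaving out control libraries 2, 3 and 4 gave 118, with 317 of the 320 keeping their sign. A replicate block gave 157, the block with the score 12 and the block with GC correction 143. Replicate numbers did not pair the samples (correlations of deviations between -0.14 and 0.16, own number the best match in 0 of 5 knockout libraries). With 1 library left out the count ran from 127 to 888. It was 175, 127, 146, 160 and 174 without knockout libraries 1 to 5 in that order. Without control libraries 1 to 5 it was 376, 248, 888, 170 and 382. The cause was not tested.

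The muscle score difference of -3.89 ran from -5.11 (without control library 1) to -2.71 with 1 library left out. Over all skeletal muscle markers it was -3.53 (exact permutation p = 0.0714). Signs turned for Suv420h1 (-0.24 to 0.0088 with 1 library left out, above 0 without knockout library 4 or control library 1), for Lep (-2.05 to 0.14 with 1 library left out, above 0 without knockout library 1 or 4 or control library 3, and 0.15 without control libraries 2, 3 and 4), and, without those 3 control libraries, for Atp5g1 (0.028) and Casq2 (0.22). With the score they turned for Ckm (0.66; 0.39 in normal diet libraries alone; 0.67 with the block; 0.73 with GC correction) and Myh4 (0.35, 0.30, 0.61 and 0.38 in that order). Ckm and Myh4 are themselves part of the score, so these turns follow from its construction and are no separate result. Over the 72 named genes and all alternatives, 1188 values kept direction and side of the threshold, 551 lost the call, 8 gained one and 16 turned. Medians of lists also turned for peroxisomal lipid metabolism (-0.04 with GC correction) and the unfolded protein and integrated stress response (-0.04 with GC correction and the score). Depth of 2398807 to 7693388 counts limits genes of a few CPM.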

Other observations

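Of the called genes outside the fixed lists, 4 are given singly, chosen after their values were seen. They are no tested group. Irf4, a transcription factor that brown fat induces on cold and fasting, averaged 67.9 ± 28.7 CPM in knockout and 17.6 ± 6.70 CPM in control libraries, without overlap (fold change 1.93 ± 0.32, adjusted p = 0.00231, and 0.0147 with the muscle score). Esr1, the oestrogen receptor alpha, averaged 59.2 ± 31.8 CPM in knockout and 19.7 ± 6.32 CPM in control libraries (1.57 ± 0.32, adjusted p = 0.0129), and the purine receptor P2ry1 48.3 ± 16.1 CPM in knockout and 16.1 ± 7.35 CPM in control libraries (1.56 ± 0.30, adjusted p = 0.00908). All 3 were called in each of the 10 fits with 1 library left out, but all 3 lost the call without control libraries 2, 3 and 4. The insulin receptor substrate Irs2 averaged 84.3 ± 55.7 CPM in knockout and 26.4 ± 11.1 CPM in control libraries (1.66 ± 0.40, adjusted p = 0.0304), and lost the call with the score (adjusted p = 0.10). On high fat diet the fold changes were 1.18 for Irf4, 0.50 for Esr1, 1.05 for P2ry1 and 0.75 for Irs2.

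By base composition, genes called higher had a median transcript GC content of 47.8% and genes called lower of 52.6%, against 49.3% over all genes with a value. On chromosome 1, 20 of 751 genes tested were called higher (2.66%, against 1.29% over all genes) and 7 lower (0.932%, against 1.36%).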
